A study of Homo sapiens with 8 samples.

Results

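The high mobility group (HMG) proteins are small, abundant chromatin proteins, and their genes were followed here through pull-downs of miR-23b and miR-27a. The set comprised 10 genes chosen by symbol, namely HMGA1, HMGA2, HMGB1, HMGB2, HMGB3, HMGN1, HMGN2, HMGN3, HMGN4 and HMG20B. The probe annotation paired 12 of the 14479 probes with 8 of these genes, and HMGA2 and HMGN3 were not analysed here because 0 probes carried their symbols. HMGN2 had 3 probes, HMGB2 and HMGN1 had 2 each, and the other 5 genes had 1 each. The family was chosen because HMGA1 and HMGB2 had been seen to be held more by miR-23b than by miR-27a in these same arrays. The values of these 2 genes are therefore given as a description, and no test of them is used as support. The question put to the data was whether the other 6 genes showed the same preference.

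Biotinylated duplexes of miR-23b or miR-27a (200 pmol) were introduced into HEK293T cells, a human embryonic kidney line, which were collected after 24 h. Streptavidin beads recovered the duplexes together with the RNA bound to them (the pull-down), and RNA without this step was the input. Each of the 4 groups, a pull-down and an input for miR-23b and the same for miR-27a, had 2 Illumina bead arrays. All 8 arrays thus came from cells of 1 line carrying a duplex, and no pull-down of a non-targeting duplex and no untransfected cells were analysed here, so that background binding to the beads was not measured. The labels do not state whether replicates 1 and 2 came from separate cultures, and the spread that p-values are measured against may be a technical one.

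Values are log2 signals as normalized by the authors, and lay between 7.18 and 15.24. Array medians lay between 9.09 and 9.12, and a change therefore shows a shift against the remaining probes and not the amount of RNA recovered. Arrays correlated across probes at 0.979 to 0.996 among inputs and at 0.955 to 0.984 among pull-downs. Of the 9 genes written down as markers of the HEK293T line, 8 were measured, with mean levels of 7.69 to 12.67, and PAX2 had no probe here. Of the markers of other tissues, 1 of 6 for fibroblasts (COL1A1, mean level 7.70), 0 of 5 for blood and 1 of 3 for liver (ALB, 8.08) were measured. In the pull-downs 1 of the 8 HEK293T markers was higher and 2 were lower for miR-23b (limma, adjusted p under 0.05), where 24.3% of all probes passed. For miR-27a 1 was higher and 3 were lower, where 34.3% passed. With the replicate number as a block in the model the counts were 1 and 4, and 1 and 6, where 44.1% and 52.7% passed. Fewer transcripts in the cells and fewer transcripts bound cannot be told apart from a pull-down array alone, which is why each pull-down was set against its input.

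MicroRNAs guide Argonaute proteins to mRNAs mainly through the seed, bases 2 to 8 of the mature strand, which pairs with sites that lie mostly in the 3' untranslated region. The labels name no strand of the duplexes. The 3p strands, to which the names miR-23b and miR-27a usually refer, are shown to set their seeds side by side. Whether the seeds bear on the changes was not tested. Sequences are from RefSeq, and the capitals mark the seed.
hsa-miR-23b-3p: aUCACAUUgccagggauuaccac
hsa-miR-27a-3p: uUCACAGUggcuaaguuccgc
The first lies at chr9:95085265-95085287 on the plus strand and the second at chr19:13836447-13836467 on the minus strand of GRCh38.p14. Counted from the 5' end, the seeds share 6 of 7 bases and differ by U7G, with the base of miR-23b first. The miR-23b seed was shared by miR-23a-3p and miR-23c, and the miR-27a seed by miR-27b-3p and miR-9985. Sequences of the HMG transcripts were not used here, so that sites for these seeds were not counted.

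HMG proteins bind DNA or nucleosomes with little regard to sequence and alter how chromatin bends, opens and compacts. The HMGA proteins enter the minor groove of AT-rich DNA by short AT-hooks, the HMGB proteins bend DNA with HMG boxes, and the HMGN proteins bind the nucleosome itself and compete there with linker histone H1. HMGA1 and HMGB2 are typical of proliferating and embryonic cells. HMG20B carries an HMG box but is a subunit of the CoREST complex, which removes methyl groups from histone H3.

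HMGA1, the AT-hook protein gene, showed the clearest separation of the pull-downs among the HMG probes. Its log2 signal was 13.01 and 13.04 in the miR-23b pull-downs (replicates 1 and 2) against 11.45 and 11.65 in their inputs. In the miR-27a pull-downs it was 10.98 and 11.37, against 11.55 and 11.58 in their inputs. Both miR-23b pull-downs thus lay above all 6 other arrays, and both miR-27a pull-downs lay below all 4 inputs. The change was 1.48 ± 0.16 (SE) with miR-23b, an apparent 2.78-fold enrichment, and -0.39 ± 0.16 with miR-27a. The difference between these changes, by which the gene was chosen, was 1.87 ± 0.23. It was 2.14 in replicate 1 and 1.60 in replicate 2. The inputs of the 2 miRNAs differed by only -0.02 ± 0.16, and the pull-downs by 1.85 ± 0.16, so that the separation lay in the pull-downs.

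HMGB2, an HMG-box protein gene of dividing cells, had a bright and a dimmer probe that went the same way. With the bright probe (ILMN_1654268) the miR-23b pull-downs read 12.04 and 12.12 and their inputs 11.41 and 11.63. The miR-27a pull-downs read 10.76 and 11.07 and their inputs 11.45 and 11.65. The pull-downs lay above the inputs with miR-23b and below them with miR-27a, with no overlap in either case. The changes were 0.56 ± 0.16 and -0.64 ± 0.16, and the difference between them, by which the gene was chosen, was 1.20 ± 0.23.

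The dimmer probe of HMGB2 (ILMN_2219712) was less regular. It read 9.37 and 9.90 in the miR-23b pull-downs against 9.29 in both inputs, and 8.56 and 9.42 in the miR-27a pull-downs against 9.27 and 9.45. With miR-27a the pull-downs and inputs overlapped, and only pull-down replicate 1 lay clearly below. The changes were 0.35 ± 0.28 and -0.37 ± 0.28 and the difference was 0.71 ± 0.40 (0.79 in replicate 1 and 0.64 in replicate 2). Without miR-27a pull-down replicate 1 the miR-27a change of this probe turned to 0.06. The 3 probes that led to the choice of the family thus had differences of 0.71 to 1.87.

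**Figure D1:**
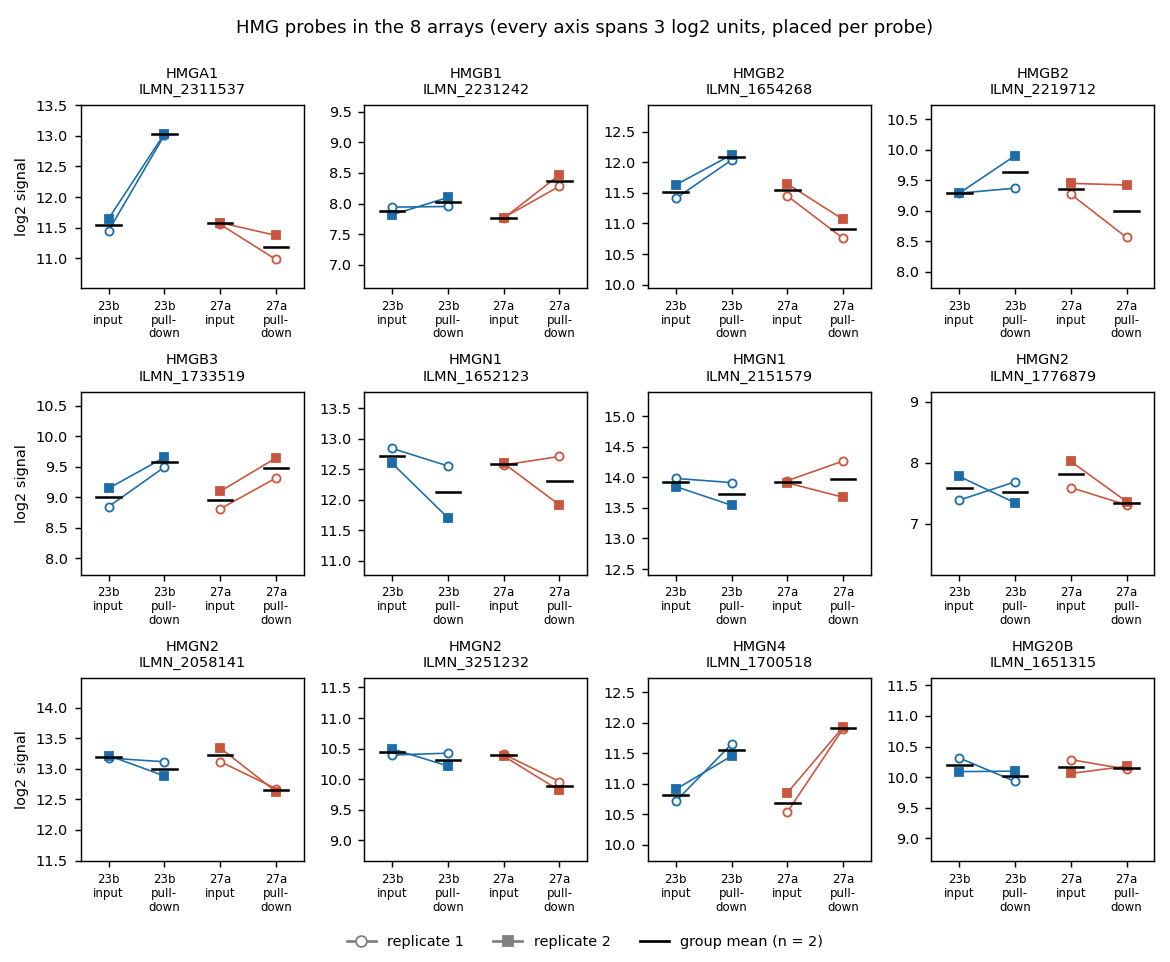
Log2 signal of the 12 HMG probes in the 8 arrays, 1 panel a probe, with lines joining the input and pull-down of the same replicate number and black bars for group means (n = 2). HMGA1 and the bright HMGB2 probe rise from input to pull-down with miR-23b and fall with miR-27a, whereas HMGN4 and HMGB3 rise with both. The dimmer HMGB2 probe hardly moves in replicate 1 with miR-23b and in replicate 2 with miR-27a.

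None of the other HMG genes showed a preference for miR-23b that passed. Passing did not by itself set them apart from HMGB2. Without the replicate block neither HMGB2 probe passed for the difference between the miRNAs (limma, adjusted p = 0.099 and 0.69). With the block the bright probe did (limma, adjusted p = 0.0041). HMGB2 was chosen by this same difference, so that its p-values are a description and no support. Of the 9 probes of the other 6 genes, 0 passed for the difference between the miRNAs (limma, adjusted p of 0.52 to 0.99), where 0.477% of all 14479 probes did (0.221% towards miR-23b and 0.256% towards miR-27a). With the replicate number as a block in the model, 0 of 9 passed too, where 4.24% of all probes did (2.87% and 1.37%). With so few calls among all probes, 0 of 9 is near the background and is no result about these genes. At an unadjusted p under 0.05 there was 1 of the 9, the HMGB1 probe, which lay towards miR-27a, where 9.38% of all probes lay under it. The sizes are given beside the calls. Differences ran from -0.48 to 0.41 with a median of -0.17, beside -0.01 over all probes, and 4 of 9 were above 0. The 3 HMGN2 probes are counted separately here. Of all probes, 87.8% to 88.9% had a lower difference than the HMGN2 probes, 6.73% than HMGN4 and 7.28% than HMGB1. For the probes of HMGB3, HMGN1 and HMG20B it was 15.7% to 58.5%. HMGA1 and HMGB2 were picked for large differences, so that the gap to the other genes was partly set by the choice. The upper ends of their 95% intervals ran from -0.02 to 1.08. Counting 1 probe a gene, 2 of the 6 genes (HMGB3 and HMGN2) had a difference above 0 and the other 4 had one below 0.

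**Figure D2:**
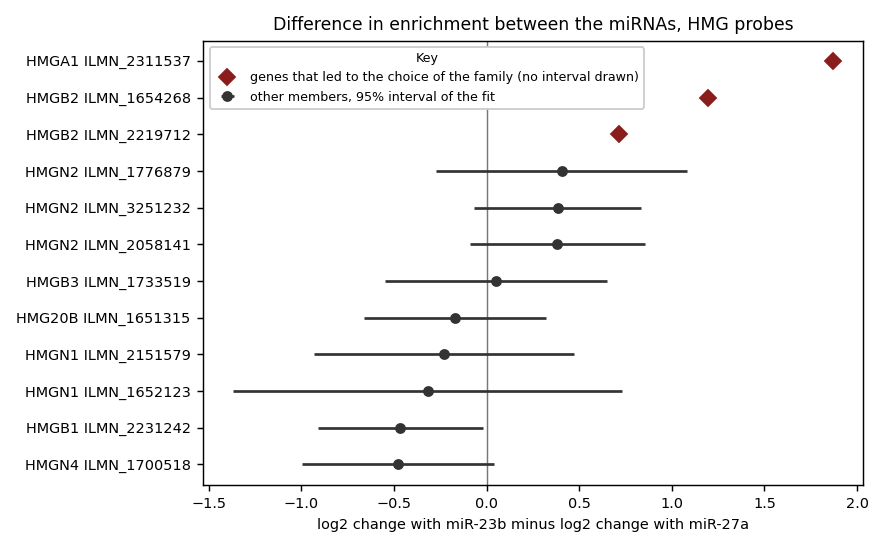
Log2 change with miR-23b minus log2 change with miR-27a for each HMG probe. Diamonds are the genes that led to the choice of the family, at 0.71 to 1.87, and circles with 95% intervals are the other members, at -0.48 to 0.41.

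HMGB3, the HMG-box gene best known from blood progenitors and embryonic tissue, had similar values in both pull-downs. Its probe read 9.49 and 9.65 in the miR-23b pull-downs against 8.85 and 9.15 in their inputs. In the miR-27a pull-downs it read 9.31 and 9.64, against 8.81 and 9.10. Pull-downs lay above their own inputs in both cases. The changes of 0.58 ± 0.18 and 0.52 ± 0.18 did not pass (limma, adjusted p = 0.055 and 0.058), and passed with the replicate block (adjusted p = 0.0030 and 0.0035). Their difference was 0.05 ± 0.26, with a 95% interval of -0.55 to 0.65, and its sign turned when any of 4 arrays was left out.

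HMGB1, the most studied HMG-box protein, which also acts as an alarm signal outside the cell, leaned towards miR-27a, the other way from HMGB2. Its only probe was dim, at 7.95 and 8.10 in the miR-23b pull-downs and 7.94 and 7.82 in their inputs. It read 8.28 and 8.47 in the miR-27a pull-downs and 7.77 and 7.76 in their inputs. With miR-23b the change was only 0.01 in replicate 1, and with miR-27a the groups were well apart. HMGB1 rose by 0.61 ± 0.14 with miR-27a (limma, adjusted p = 0.012), and its change was 0.15 ± 0.14 with miR-23b (adjusted p = 0.47). The call with miR-27a was lost without input replicate 1 or 2 or pull-down replicate 2 of miR-27a (adjusted p up to 0.078). The difference of -0.47 ± 0.19 did not pass (adjusted p = 0.52).

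The HMG-box paralogues HMGB1 and HMGB3 therefore stood at differences of -0.47 and 0.05, and HMGB2 at 1.20 and 0.71 with its 2 probes (0.96 for their mean). The interval of HMGB3 overlapped that of HMGB1, which ran from -0.91 to -0.02, and the differences between genes were not tested.

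HMGN4, an intronless gene that arose as a copy of the HMGN2 mRNA, had the strongest enrichment among the genes outside HMGA1 and HMGB2. Its probe read 11.65 and 11.46 in the miR-23b pull-downs against 10.72 and 10.91 in their inputs. It read 11.90 and 11.93 in the miR-27a pull-downs against 10.54 and 10.85. All 4 pull-downs lay above all 4 inputs. HMGN4 rose by 0.74 ± 0.16 with miR-23b and by 1.22 ± 0.16 with miR-27a, an apparent 1.67-fold and 2.33-fold (limma, adjusted p = 0.015 and 0.0018). The call with miR-27a held without any single array, and that with miR-23b was lost without pull-down or input replicate 1 of miR-23b (adjusted p up to 0.074). The difference of -0.48 ± 0.23, 95% interval -0.999 to 0.04, lay towards miR-27a and did not pass (adjusted p = 0.59).

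HMGN2, a nucleosome-binding protein gene, went the other way from its copy, and its 3 probes had nearly the same difference. The brightest probe (ILMN_2058141) read 13.12 and 12.88 in the miR-23b pull-downs against 13.18 and 13.22 in their inputs. It read 12.68 and 12.63 in the miR-27a pull-downs against 13.12 and 13.34. Pull-downs lay below their inputs with both miRNAs, by little with miR-23b. With miR-27a this probe fell by 0.58 (SE 0.15; limma, adjusted p = 0.018) and probe ILMN_3251232 fell by 0.51 (SE 0.14; adjusted p = 0.025).

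With miR-23b the changes of these HMGN2 probes were -0.20 ± 0.15 and -0.12 ± 0.14 (adjusted p = 0.36 and 0.55). Leaving out either pull-down or input replicate 2 of miR-27a ended both calls, and leaving out its input replicate 1 ended that of the second probe (adjusted p up to 0.11 and 0.13). The dimmest probe (ILMN_1776879) had readings of 7.31 to 8.03 over the arrays, near the lowest values of the table, and changes of -0.07 ± 0.21 and -0.47 ± 0.21. The differences of the 3 probes were 0.38 ± 0.21, 0.38 ± 0.20 and 0.41 ± 0.29, higher with miR-23b in both replicates of each, and none passed (adjusted p = 0.64 to 0.78). The probes share the transcript, so that they do not count as independent evidence. Beside HMGB3, at 0.05, HMGN2 was the only one of the 6 genes that leaned as HMGA1 and HMGB2 did, with intervals that began below 0 and reached up to 1.08. Its lean came with lower values in the miR-27a pull-down and no higher ones in the miR-23b pull-down.

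HMGN1, the other nucleosome-binding gene with several probes, varied more between replicates than between miRNAs. Probe ILMN_1652123 read 12.55 and 11.70 in the miR-23b pull-downs, 12.71 and 11.91 in the miR-27a pull-downs and 12.57 to 12.84 in the inputs. Probe ILMN_2151579 read 13.91 and 13.54, 14.27 and 13.68, and 13.85 to 13.98 in the same order. In both probes and with both miRNAs the pull-down of replicate 2 was the lower, and the inputs were close together. The changes of the first probe were -0.59 ± 0.32 with miR-23b (limma, adjusted p = 0.22, or 0.040 in the blocked model) and -0.27 ± 0.32 with miR-27a. Those of the second were -0.19 ± 0.21 and 0.04 ± 0.21. Neither difference passed (-0.32 ± 0.45 and -0.23 ± 0.30).

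HMG20B, the CoREST subunit, hardly moved. Its probe lay between 9.93 and 10.31 in the 8 arrays, and pull-downs and inputs overlapped with both miRNAs. The changes were -0.19 ± 0.15 with miR-23b and -0.02 ± 0.15 with miR-27a (limma, adjusted p = 0.39 and 0.93), and the difference was -0.17 ± 0.21.

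The calls against the inputs were of 3 genes, HMGB1, HMGN2 and HMGN4. Among the 9 probes outside HMGA1 and HMGB2, 1 was higher with miR-23b (11.1%, HMGN4) and 0 were lower, where 24.3% of all probes passed, 12% higher and 12.2% lower. With miR-27a 2 were higher (HMGB1 and HMGN4) and 2 lower (brighter probes of HMGN2), 22.2% each way, where 34.3% of all probes passed, 17.1% higher and 17.2% lower. In the blocked model the counts were 2 higher and 1 lower for miR-23b, where 44.1% of all probes passed, 22.1% each way. For miR-27a they were 3 higher and 2 lower, where 52.7% passed, 24.2% higher and 28.5% lower. Without any test, pull-downs lay wholly above their inputs in 6 of the 12 HMG probes with miR-23b and wholly below in 2, where 62.4% of all probes were so separated, 29.9% above and 32.5% below. For miR-27a these counts were 3 and 5, where 70.9% of all probes were separated, 31.5% above and 39.3% below. The 6 above with miR-23b were HMGA1 and both HMGB2 probes, whose values led to the choice of the family, and HMGB1, HMGB3 and HMGN4. The 5 below with miR-27a were HMGA1, the bright HMGB2 probe and the HMGN2 probes. No result about the family is read from these counts. The median change of the 9 probes outside HMGA1 and HMGB2 was -0.12 with miR-23b and -0.02 with miR-27a, beside -0.02 and -0.07 over all probes. Opposite signs in the pull-downs, above 0 with miR-23b and below 0 with miR-27a, were a feature of HMGA1 and both HMGB2 probes only, and 11.8% of all probes had them. The opposite pattern was found in 7.45% of all probes, among them HMGN1 probe ILMN_2151579, and 48.3% had a difference above 0.

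**Figure D3:**
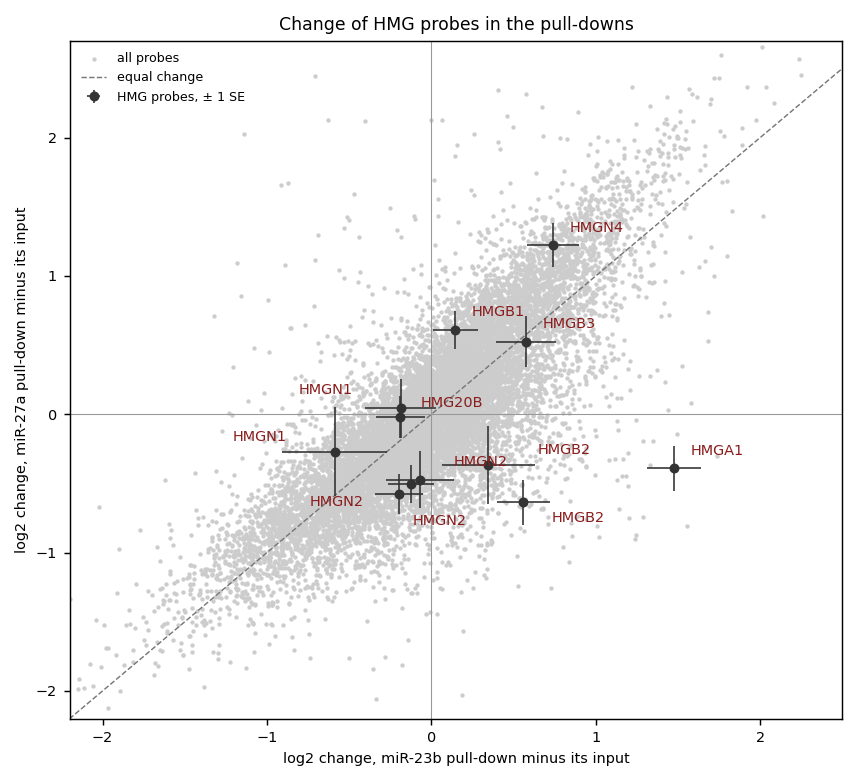
Log2 change in the miR-27a pull-down (vertical axis) against that in the miR-23b pull-down (horizontal axis) for all probes (grey) and the HMG probes (black, with bars of 1 SE), with a dashed line of equal change. HMGA1 lies farthest below the line at 1.48 and -0.39, HMGN4 lies above it at 0.74 and 1.22, and HMGB3 lies close to it.

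The inputs of the miRNAs hardly differed for these genes. Between the miR-23b and miR-27a inputs the 12 probes differed by -0.23 to 0.14, and 0 passed in limma (0 at an unadjusted p under 0.05, and 0 with the replicate block). Among all probes 0 passed as well, with 76 (0.525%) at an unadjusted p under 0.05, so that 0 of 12 is the background. Without any difference a share near 0.05 would be anticipated there, so that the fit was conservative for the inputs. The 0 of 12 therefore decides nothing, and only the sizes are read. Set against each other directly, the pull-downs differed by 0.43 ± 0.14 for HMGN2 probe ILMN_3251232 (adjusted p = 0.15, and 0.039 with the replicate block). This was the only probe of the 6 other genes to pass in that comparison in either model, where 3.47% of all probes passed (2.26% higher in that of miR-23b and 1.21% lower), and 16% with the block (9.03% and 6.93%).

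Genes with signals most like those of HMGA1 and HMGB2 over the 8 arrays were looked up among 9534 other genes. For HMGA1 they were CXXC5 (Pearson r = 0.983), BCDIN3D (0.983), SLC35A4 (0.982), ANKRD23 (0.978) and KAT2A (0.975). The size of the pattern differed among them. CXXC5 changed by 1.74 with miR-23b and -0.30 with miR-27a, close to HMGA1, whereas BCDIN3D changed by 0.31 and -0.03. For the bright probe of HMGB2 they were SOD1 (0.996), GTSE1 (0.990), HROB (0.986), WBP11 (0.981) and BTN3A2 (0.980). SOD1, the cytosolic superoxide dismutase gene, changed by 0.54 with miR-23b and -0.67 with miR-27a, where HMGB2 had 0.56 and -0.64. The arrays of a group are alike, so that these correlations rest on 4 group levels more than on 8 separate points. The ranking used the array values that led to the choice of HMGA1 and HMGB2, and like changes in the closest genes follow from it. No HMG gene was among the 5 closest to either, but 5 of 9534 genes are too few to tell anything about the family.

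Other genes with an HMG box or an HMGN domain were looked up as well. Of 26 listed genes 17 were measured, and 3 rose with miR-23b, 0 fell and 14 did not pass (5 and 1 with the replicate block). With miR-27a 1 rose and 2 fell (4 and 4 with the block). Among all probes 12% rose and 12.2% fell with miR-23b, and 17.1% and 17.2% with miR-27a (22.1% each way, and 24.2% and 28.5%, with the block). No result about the list is read from these counts. The medians of 0.04 and -0.08 stood beside 0.02 and -0.04 over all genes. TFAM, the HMG-box protein that packages mitochondrial DNA, rose with both, by 1.12 ± 0.18 and 1.24 ± 0.18 (limma, adjusted p = 0.0059 and 0.0024), and kept both calls without any single array.

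TCF7L2, the HMG-box factor of Wnt signalling, rose by 1.17 ± 0.25 with miR-23b (limma, adjusted p = 0.014) and had a value of 0.54 ± 0.25 with miR-27a (adjusted p = 0.13, and 0.041 with the replicate block). The first call was lost without pull-down or input replicate 2 of miR-23b (adjusted p up to 0.080). SOX11, a factor of neural progenitors, rose by 0.68 ± 0.20 with miR-23b (limma, adjusted p = 0.040), a call lost when any of 5 arrays was left out. With miR-27a it had 0.43 ± 0.20 (adjusted p = 0.12, or 0.015 with the block), and its difference was 0.24 ± 0.28. SSRP1, a subunit of the histone chaperone FACT, fell by 0.61 with miR-27a (adjusted p = 0.014), and UBTF, which serves RNA polymerase I, fell by 0.54 (adjusted p = 0.025). Both lost the miR-27a call without pull-down replicate 1 or either input of miR-27a. With miR-23b SSRP1 had -0.05 ± 0.14 (limma, adjusted p = 0.83) and UBTF had -0.43 ± 0.15 (adjusted p = 0.074, or 0.014 with the block). For the difference between the miRNAs 0 of the 17 passed in limma, with or without the block, beside 0.477% and 4.24% of all probes.

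**Figure D4:**
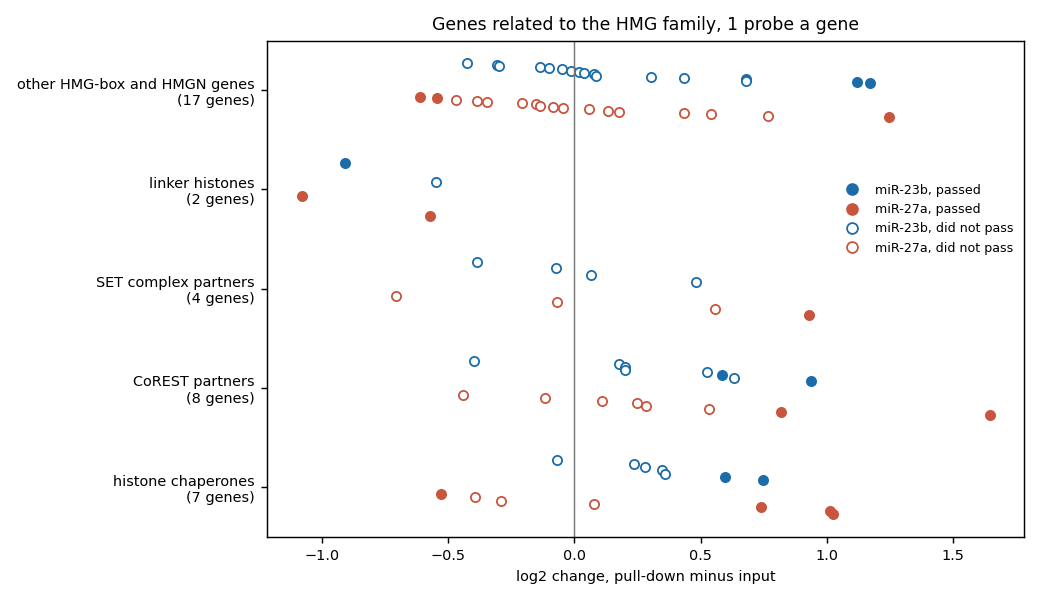
Log2 change from input to pull-down of genes related to the HMG family, 1 point a gene and miRNA (miR-23b blue, miR-27a red), filled where the adjusted p was under 0.05. TFAM and RCOR3 are filled on the right with both miRNAs, and H1-10 on the left.

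Of 7 listed linker histones, with which the HMGN proteins compete on nucleosomes, 2 were measured. With miR-23b 1 fell and with miR-27a 2 fell, where 12.2% and 17.2% of all probes did (2 and 2 with the block, where 22.1% and 28.5% did). H1-10 fell by 0.91 with miR-23b and by 1.08 with miR-27a (limma, adjusted p = 0.023 and 0.0086), and H1-2 fell by 0.57 with miR-27a (adjusted p = 0.038). With miR-23b the value of H1-2 was -0.55 ± 0.18 (adjusted p = 0.055, or 0.0077 when blocked). H1-2 lost its call without any of the 4 miR-27a arrays (up to 0.16), and H1-10 lost it without pull-down replicate 1 or either input of miR-23b (up to 0.11) and, with miR-27a, without its pull-down replicate 1 or input replicate 2 (up to 0.055).

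Of 8 measured partners of HMG20B in the CoREST complex, 2 rose and 0 fell with each miRNA, where 24.3% and 34.3% of all probes passed. With the block 4 rose and 1 fell with miR-23b and 3 rose and 1 fell with miR-27a, where 44.1% and 52.7% passed. No result about these partners is read from the counts. The medians were 0.36 and 0.27, beside 0.02 and -0.04 over all genes. RCOR3, a CoREST scaffold, rose by 0.94 ± 0.16 and 1.65 ± 0.16 (limma, adjusted p = 0.0067 and 0.00086) and kept both calls without any single array. ZMYM2, a zinc finger partner of the complex, rose by 0.58 ± 0.17 and 0.82 ± 0.17 (adjusted p = 0.041 and 0.0088). It lost the first call when any of 6 arrays was left out (up to 0.17) and the second without pull-down replicate 2 of miR-27a (0.057).

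HMGB2 takes part in the SET complex, and 4 of 7 listed partners were measured. With miR-23b 0 passed in limma (1 higher and 1 lower with the block), and with miR-27a 1 rose (2 and 1 with the block), where 24.3% and 34.3% of all probes passed (44.1% and 52.7% with the block). NME1, a nucleoside diphosphate kinase of that complex, rose by 0.93 ± 0.13 with miR-27a (limma, adjusted p = 0.0020) and had -0.39 ± 0.13 with miR-23b (adjusted p = 0.059, or 0.019 when blocked). Its difference of -1.32 ± 0.18 passed in the direction opposite to that of HMGB2 (adjusted p = 0.028), but not when any single array was left out (0.090 to 0.15). In the blocked model 1 partner had a higher change with miR-23b and another with miR-27a, where 2.87% and 1.37% of all probes did. Without the block NME1 was the 1 partner to pass for the difference, where 0.477% of all probes did. No result about these partners is read from the counts.

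Histone chaperones of nucleosome assembly had 7 of 8 genes measured, with 2 higher with miR-23b and 3 higher and 1 lower with miR-27a (3 and 0, and 3 and 2, with the block). Beside these, 24.3% and 34.3% of all probes passed (44.1% and 52.7% when blocked). ASF1A, which hands over histones H3 and H4, rose by 0.75 ± 0.19 and 1.02 ± 0.19 (limma, adjusted p = 0.028 and 0.0062). CHAF1B, a subunit of chromatin assembly factor 1, rose by 0.60 ± 0.13 with miR-23b (limma, adjusted p = 0.016). With miR-27a it had -0.40 ± 0.13 (adjusted p = 0.0504, or 0.019 with the block). Its difference was 0.99 ± 0.19 (adjusted p = 0.092, or 0.013 with the block), with signs as in HMGA1 and HMGB2. CHAF1A (0.24 and -0.53) and ASF1B (0.35 and -0.29) had the same signs. ASF1A, NAP1L1 and NAP1L4 were above 0 with both miRNAs, and SUPT16H had -0.07 and 0.08. With miR-23b ASF1A and CHAF1B lost the call when any of 3 arrays was left out (up to 0.14 and 0.077), and with miR-27a ASF1A kept it without any single array.

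The nucleosome assembly protein genes NAP1L4 and NAP1L1 rose with miR-27a by 1.01 ± 0.21 and 0.74 ± 0.19 (limma, adjusted p = 0.0084 and 0.019), and both lost the call without input replicate 1 or pull-down replicate 2 of miR-27a (up to 0.057 and 0.12). The gene that fell, named after its value was seen, was CHAF1A, by 0.53 (adjusted p = 0.035), and it lost its call without any of the 4 miR-27a arrays (up to 0.16). For the difference between the miRNAs 0 of 7 chaperones and 0 of 8 CoREST partners passed in limma, where 0.477% of all probes did. With the block 1 chaperone (CHAF1B) and 1 CoREST partner lay towards miR-23b and 1 CoREST partner towards miR-27a. Of all probes 2.87% and 1.37% did so. No result about these lists is read from the counts.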

How the data were processed

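RNA of 4 groups of 2 arrays was profiled on 1-colour Illumina arrays. The log2 values deposited by the authors were made with lumi 2.2.1 per the submitters' processing notes. For their transformation, normalization and probe filter nothing is stated in the labels or headers. If a variance-stabilizing transformation was used, changes of dim probes are understated, and folds are therefore called apparent. A table of non-normalized signals, with 16 columns (8 signals and 8 detection p) whose names match no sample, was not used, so that no detection filter was applied and the height of a probe above background is unknown.

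Precision is limited by the number of arrays. The platform annotation named the probes (12008 with 1 gene, 2 with several, 2469 with none), and 12006 Entrez identifiers matched RefSeq GRCh38.p14. All member probes were kept. Other genes were represented by the probe with the highest mean (9535 genes). Counts over markers and related lists thus take 1 probe a gene, whereas the shares printed beside them are over all probes. Shares over the 9535 probes alone were not computed. RefSeq lists pseudogenes named after HMGB1 (50), HMGN2 (48), HMGN1 (38), HMGB3 (32), HMGA1 (8) and HMGB2 (1), whose transcripts could share probes, and the positions of the probes were not examined.

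Group means were fitted over all 8 arrays with limma 3.58.1 in R 4.3.3 (4 residual degrees of freedom, empirical Bayes). Tests were two-sided, with Benjamini-Hochberg adjustment over 14479 probes, and an adjusted p under 0.05 counted as passing. The fit was tested on simulated data. SE is the moderated standard error. Differences between replicates 2 and 1 correlated at 0.34 to 0.80 over the 6 pairs of groups, above 0.1 in each, so that the numbers were taken to pair the arrays, from the data and not the labels. Values with this replicate block stand beside a result where they change a call or move a count by over 1.5 times. Other alternatives were median scaling, quantile normalization, removal of the dimmest 25% of probes, a fit of only the groups compared, an intensity trend in the prior, the mean of the probes of a gene, and leaving out each array. The members and the lists were chosen with earlier results of these data known. Within a related list, up to 3 genes that passed with the largest change were named. Likeness was Pearson's r over the 8 arrays.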

Additional observations from a re-analysis of the deposited data

Results flagged for a closer look

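HMGA1 and both probes of HMGB2 stood out because both replicates moved up in the miR-23b pull-down and down in the miR-27a pull-down. For the dimmer HMGB2 probe the move was only 0.08 in replicate 1 with miR-23b and -0.03 in replicate 2 with miR-27a. The changes differed by 1.87 for HMGA1 and, for HMGB2, by 1.20 with the bright probe and 0.71 with the dimmer one. These differences led to the choice of the family and are given as a description.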

How the results depend on the processing

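With 2 arrays a group, modest changes could be missed, and 95% intervals of the differences reached up to 1.08. The direction of HMGA1 and of the bright HMGB2 probe was kept under every alternative in both pull-downs. When single arrays were left out, the difference ran from 1.67 to 2.07 for HMGA1 and from 1.04 to 1.35 for this HMGB2 probe. The miR-23b change of the HMGB2 probe did not pass when only the groups compared were fitted or with an intensity trend (limma, adjusted p = 0.074 and 0.052). Nor did the mean of both HMGB2 probes pass with miR-23b or miR-27a (limma, adjusted p = 0.15 and 0.098). HMGB2 was chosen from these same values, so that its p-values show only how the fit depends on the processing. With the replicate block, which pairs arrays of 1 number, 6389 probes passed with miR-23b, 7632 with miR-27a, 614 for the difference and 2311 between the pull-downs (3513, 4968, 69 and 502 without it). Of the 9 HMG probes outside HMGA1 and HMGB2, 3, 5, 0 and 1 were among them (1, 4, 0 and 0 without it). When only the groups compared were fitted, 2117 probes passed with miR-23b and 137 between the pull-downs, and SOX11, H1-10, ZMYM2, CHAF1B and ASF1A lost their miR-23b calls (adjusted p of 0.055 to 0.073). Quantile normalization turned the input difference of HMGN2 probe ILMN_2058141 to 8.5e-04, and the mean over both probes turned the miR-27a change of HMGN1 to -0.11. Quantile normalization also ended the call of NME1 for the difference (adjusted p = 0.065), and an intensity trend ended those of ZMYM2 with miR-23b (0.058) and CHAF1A with miR-27a (0.054). Median scaling and removal of dim probes, which left out HMGB1 and HMGN2 ILMN_1776879, changed no direction or call of a named gene.

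Leaving out each array in turn gave 1241 to 3022 probes with miR-23b (0 to 1 of the 9 HMG probes), 2573 to 5095 with miR-27a (1 to 4), 0 to 15 for the difference (0) and 82 to 362 between the pull-downs (0). Signs turned for small values. These were HMGN2 ILMN_1776879 with miR-23b (-0.26 to 0.13) and, with miR-27a, HMGB2 ILMN_2219712 (-0.80 to 0.062), HMGN1 ILMN_1652123 (-0.67 to 0.13), HMGN1 ILMN_2151579 (-0.25 to 0.34) and HMG20B (-0.13 to 0.094). For the difference they were HMGB3 (-0.11 to 0.21), HMGN1 ILMN_1652123 (-0.74 to 0.11) and ILMN_2151579 (-0.53 to 0.066). Between the pull-downs they were HMGB3 (-0.070 to 0.26) and HMGN1 (-0.61 to 0.24 and -0.54 to 0.054). Between the inputs they were HMGA1 (-0.12 to 0.081), HMGB2 (-0.14 to 0.081 and -0.16 to 0.017), HMGB3 (-0.11 to 0.19), HMGN1 ILMN_2151579 (-0.078 to 0.055), HMGN2 ILMN_2058141 (-0.15 to 0.078), HMGN4 (-0.039 to 0.28) and HMG20B (-0.084 to 0.14). The cause was not tested.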
